A study of Mus musculus with 6 samples.

Results

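The genes described here encode the machinery that makes ribosomes: 54 genes of ribosome biogenesis and ribosomal RNA (rRNA) processing, given by name, out of 26532 genes in the table. All 54 were found by matching the table's Entrez numbers to RefSeq symbols, and all 54 were among the 13764 genes that passed the low-count filter. By role, 6 serve RNA polymerase I, 20 the small ribosomal subunit, 16 the large subunit, 3 are proteins of box C/D small nucleolar ribonucleoproteins (snoRNPs), 4 are proteins of box H/ACA snoRNPs, and 5 are general nucleolar proteins. The RNA came from MEFs, fibroblasts cultured from mouse embryos, and the cell type label reads mesenchymal stem cells. In the ORAI2 group (3 libraries, genotype labelled ORAI2 Overexpression) a recombinant adenovirus supplied ORAI2, which forms calcium channels in the cell membrane that respond to emptied internal stores. In the GFP group (3 libraries, genotype labelled WT) the adenovirus was AdGFP, named for green fluorescent protein. All 6 carry the treatment label osteogenic differentiation. The sample labels do not state whether BMP9, the bone morphogenetic protein in the series title, was added, nor the promoter of the viruses or the time of harvest. They do not state separate cultures either, so the p-values reflect library-to-library spread that may be technical.

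Ribosomes are assembled in the nucleolus. RNA polymerase I transcribes a long precursor rRNA there, small nucleolar RNAs guide its chemical modification, and many assembly factors fold, cut and trim it into the RNAs of the small and the large subunit while ribosomal proteins are added. The transcription factor MYC is known to activate many of these genes, often through the E-box sequence CACGTG, and nucleolar output is known to follow cell growth. The design holds a single comparison, between cells given ORAI2 and cells given GFP.

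The libraries held between 18526884 and 18844436 counts. Orai2 was at 3652, 2828 and 2439 CPM in the ORAI2 libraries, against 53.3, 48.9 and 48.6 CPM in the GFP libraries. The groups did not overlap, and the level was higher 59.2-fold (log2 fold change 5.89, SE 0.13, adjusted p = 7.02e-11). Adjusted p-values here and below come from edgeR's quasi-likelihood test, with the Benjamini-Hochberg method applied over all tested genes. CPM are counts scaled to the TMM-adjusted library total. They are not corrected for transcript length, so levels of single genes are not compared with each other. Ratios of summed levels below depend on transcript length and are compared between libraries only. Of the 13 fibroblast markers checked, 11 were tested and all 11 were lower in ORAI2 libraries, with a summed level of 1526 to 1670 CPM in ORAI2 libraries and 2733 to 2868 CPM in GFP libraries. Thy1 and Fap, also fibroblast markers, were under the filter. Of 8 mesenchymal stem cell markers 7 were tested, of which 2 were higher, 3 lower and 2 not called, and the summed levels overlapped, at 1514 to 1543 CPM in ORAI2 and 1523 to 1661 CPM in GFP libraries. Macrophage markers summed to 26.7 to 35.98 CPM in ORAI2 libraries and 52.0 to 56.3 CPM in GFP libraries (2 of 3 tested markers lower). Endothelial markers summed to 16.3 to 17.6 CPM in ORAI2 libraries and 6.47 to 8.82 CPM in GFP libraries (2 of 2 higher). Epithelial markers summed to 4.32 to 5.27 CPM in ORAI2 libraries and 3.26 to 3.96 CPM in GFP libraries (1 of 2 higher). Neural and glial markers summed to 170.8 to 184 CPM in ORAI2 libraries and 140.0 to 154.6 CPM in GFP libraries (1 of 5 higher and 1 lower). Emcn (endothelium) and Epcam (epithelium) had no count in any library. The part of these marker differences in the results below was not tested. In bulk RNA, a different share of cells of a type and a different amount of RNA per cell cannot be told apart.

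The start regions of the members give the sequence context. RefSeq promoters (assembly GRCm38.p6, 250 bases before to 50 after a gene's start) were found for 49 of the 54 members. Rrp12, Bop1, Rrs1, Fbl and Npm1 had no entry. The E-box CACGTG, whose complement on the other strand reads the same, was in the promoter of 12 of the 49 members (24.5%), against 11.7% of the 10709 tested genes with a promoter in the table and 8.09% of all 27025 genes with one. Of the 12 members, 7 were small-subunit factors, 3 large-subunit factors, 1 was a polymerase I factor and 1 a general nucleolar protein, and all 12 were called higher in ORAI2 libraries. Each stretch below is 30 bases in the annotated direction of transcription, with the E-box in capitals. They are shown because MYC is known to bind these letters, which are not specific to MYC. In 8 of the 12 promoters a stretch after the start was found in an annotated transcript of the gene. For the others, direction and start rest on the promoter entry alone. The 4 E-boxes before the start site were these.
Rrn3, first E-box (chr16:13780472-13780501, + strand): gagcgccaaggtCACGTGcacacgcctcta
Rrn3, second E-box (chr16:13780639-13780668, + strand): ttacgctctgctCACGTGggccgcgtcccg
Imp4 (chr1:34439696-34439725, + strand): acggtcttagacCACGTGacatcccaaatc
Nop2 (chr6:125131811-125131840, + strand): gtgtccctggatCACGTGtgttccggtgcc

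The other 9 E-boxes lay within the first 50 bases after the annotated start.
Utp4 (chr8:106893643-106893672, + strand): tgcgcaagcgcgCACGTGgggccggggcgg
Wdr43 (chr17:71616220-71616249, + strand): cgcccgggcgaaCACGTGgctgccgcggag
Utp20 (chr10:88826765-88826794, - strand): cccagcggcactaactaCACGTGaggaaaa
Pno1 (chr11:17211540-17211569, - strand): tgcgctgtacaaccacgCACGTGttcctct
Ltv1 (chr10:13193092-13193121, - strand): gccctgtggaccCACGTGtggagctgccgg
Tsr1 (chr11:74898092-74898121, + strand): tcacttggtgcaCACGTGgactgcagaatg
Pes1 (chr11:3963965-3963994, + strand): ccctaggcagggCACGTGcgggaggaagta
Grwd1 (chr7:45830740-45830769, - strand): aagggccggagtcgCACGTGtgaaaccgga
Mybbp1a (chr11:72441347-72441376, + strand): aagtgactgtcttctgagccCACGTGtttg

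The level of change did not separate members with and without these letters. The 12 members with an E-box had a median log2 fold change of 0.34 (range 0.14 to 0.48), and the 37 members without one 0.32 (range -0.32 to 0.53), of which 34 were called higher. Over all tested genes with a promoter, CACGTG was present in 18.3% of those called higher, 8.80% of those called lower and 10.4% of those not called. The related letters CACGCG, on either strand, were in 16 of the 49 members (32.7%), against 19.6% of tested genes. The core of ETS-factor motifs, CCGGAA, was in 23 (46.9%, against 30.9%), the GC box GGGCGG in 35 (71.4%, against 67.1%) and CCAAT in 20 (40.8%, against 43.4%), each on either strand. A match is a description of the letters in this window and not a measured binding site.

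Ribosome biogenesis genes were higher in ORAI2 libraries almost throughout. Of the 54 members, 50 rose, 1 fell (Polr1c) and 3 did not pass the adjusted p of 0.05 (Imp3, Nop10 and Npm1). Over all 13764 tested genes, 20.8% were called higher and 22.1% lower, 42.9% in all. With a filter at 5 CPM, 51.4% of the remaining 10591 genes were called, 25.6% higher. Every member that rose did so by less than 1.5-fold, between 1.08-fold and 1.44-fold with a median of 1.25-fold. The median log2 fold change of the members was 0.31, that of all tested genes -0.0018. In 49 members every ORAI2 library lay above every GFP library, in Polr1c every ORAI2 library lay below, and in the other 4 (Imp3, Ddx10, Nop10 and Npm1) the groups overlapped. Groups did not overlap in 52.9% of all tested genes. Summed over the 54 members, the level was 11075, 10765 and 10811 CPM in the ORAI2 libraries, against 9066, 8919 and 8734 CPM in the GFP libraries, a ratio of the means of 1.22.

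**Figure D1:**
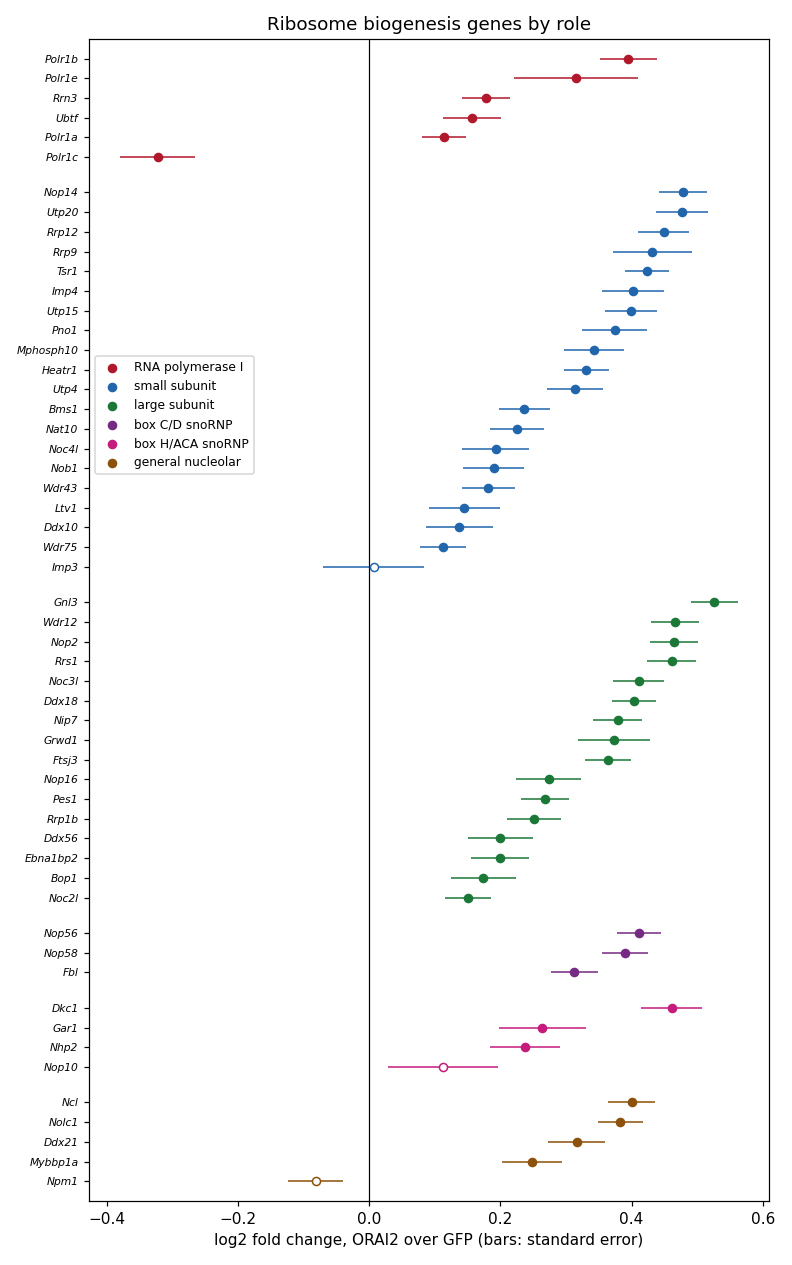
Log2 fold change (ORAI2 over GFP, x axis) of each of the 54 members, grouped by role, with standard errors as bars. Filled points passed an adjusted p of 0.05 and open points did not. Polr1c is the only filled point left of 0, and Gnl3 lies furthest right at 0.53.

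The median rise was smallest in the RNA polymerase I members, which include Polr1c, the only member called lower. The small-subunit and large-subunit medians lay close together. The median log2 fold change was 0.17 for the 6 RNA polymerase I members, 0.32 for the 20 small-subunit members, 0.37 for the 16 large-subunit members and 0.31 for the 7 snoRNP members. Summed levels put polymerase I, small-subunit and large-subunit members in the same order. The polymerase I members summed to 754.8, 772 and 755.0 CPM in the ORAI2 libraries, against 704.8, 688.4 and 690.6 CPM in the GFP libraries, 9.50% more. In ORAI2 libraries Ubtf and Polr1a made up 278 and 238 CPM of that sum's mean of 761 CPM. They had the smallest rises of the role (log2 fold change 0.16 and 0.11), so this sum mostly reflects them. Small-subunit members summed to 2798, 2696 and 2723 CPM in the ORAI2 libraries, against 2229, 2214 and 2183 CPM in the GFP libraries, 24.0% more. Large-subunit members summed to 1900.2, 1871 and 1889 CPM in the ORAI2 libraries, against 1476, 1482 and 1459 CPM in the GFP libraries, 28.1% more. None of these sums overlapped between the groups. The large-subunit sum divided by the small-subunit sum was 0.679, 0.694 and 0.694 in ORAI2 libraries and 0.662, 0.670 and 0.669 in GFP libraries, close together yet without overlap. The polymerase I sum divided by the small-subunit sum was 0.270, 0.286 and 0.277 in ORAI2 libraries, below the 0.316, 0.311 and 0.316 in GFP libraries. Differences between roles are given as descriptions with no test, since genes of a list are not replicates.

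**Figure D2:**
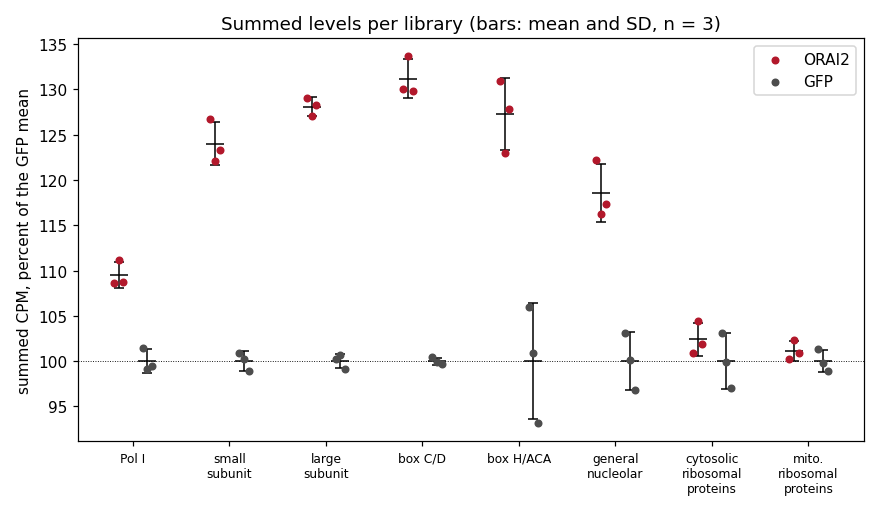
Summed CPM of each role in each library as a percentage of the GFP mean (y axis, not starting at 0), with ORAI2 libraries in red left of GFP libraries in grey, and bars for mean and SD (n = 3). All 6 roles are above the GFP range in all ORAI2 libraries, whereas the ribosomal protein sums of the cytosol and the mitochondria overlap.

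RNA polymerase I members gave 5 higher and 1 lower. Polr1b, the second-largest subunit of the enzyme, was at 71.4, 70.4 and 74.9 CPM in the ORAI2 libraries, against 53.8, 55.5 and 55.5 CPM in the GFP libraries. It rose 1.31-fold (log2 fold change 0.40, SE 0.043, adjusted p = 1.28e-05). Rrn3, the factor that brings the polymerase to the promoter of the rRNA genes and whose own promoter carries a pair of E-boxes, was at 105, 106 and 104 CPM in the ORAI2 libraries, against 94.4, 90.4 and 93.8 CPM in the GFP libraries, and rose 1.13-fold (log2 fold change 0.18, SE 0.036, adjusted p = 0.0017). Ubtf, which encodes the factor that keeps active rRNA genes open, was at 269.6, 298 and 267 CPM in the ORAI2 libraries, against 251, 244 and 253 CPM in the GFP libraries and rose 1.11-fold (log2 fold change 0.16, SE 0.044, adjusted p = 0.0115). All 3 genes lay higher in each ORAI2 library than in any GFP library, though the Ubtf call was lost without GFP replicate 2 (adjusted p = 0.0575). The catalytic subunit gene Polr1a rose 1.08-fold (adjusted p = 0.0155). Polr1e, which encodes a subunit of the initiation-competent enzyme, had the fewest counts of any member, at 14.8 ± 1.06 CPM in ORAI2 libraries and 11.9 ± 1.19 CPM in GFP libraries (SD, n = 3 each), and rose 1.24-fold. The Polr1e call was lost without GFP replicate 3 (adjusted p = 0.0617) and without ORAI2 replicate 1 (adjusted p = 0.0702).

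Polr1c encodes a subunit that RNA polymerase I shares with RNA polymerase III, the enzyme that makes transfer RNAs and the smallest rRNA. It was at 51.2, 51.5 and 54.5 CPM in the ORAI2 libraries, against 71.2, 64.2 and 61.2 CPM in the GFP libraries. It was lower by 1.25-fold (log2 fold change -0.32, SE 0.057, adjusted p = 6.20e-04), with every ORAI2 library below every GFP library. It was called lower in all 17 alternative fits, with log2 fold changes between -0.37 and -0.26 and adjusted p-values between 4.89e-05 and 0.00415. Polr1d, the partner of Polr1c in both enzymes, did not pass, with a log2 fold change of 0.080 (adjusted p = 0.102). Its groups did not overlap, at 100.6 to 101.5 CPM in ORAI2 libraries and 93.5 to 98.7 CPM in GFP libraries.

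Small-subunit factors build the processome on the front part of the precursor rRNA. Of the 20, 19 rose and 1 did not pass. All 5 members of the UTP-A group, which binds the start of the precursor, rose, with log2 fold changes between 0.11 for Wdr75 and 0.40 for Utp15. The Wdr75 call was lost with offsets for GC content (log2 fold change 0.069, adjusted p = 0.127, and adjusted p = 0.104 with the replicate block), without GFP replicate 3 (adjusted p = 0.054) and without ORAI2 replicate 1 (adjusted p = 0.0599). Wdr43 was at 433, 425 and 408 CPM in the ORAI2 libraries, against 379, 383 and 355 CPM in the GFP libraries and rose 1.13-fold (log2 fold change 0.18, SE 0.040, adjusted p = 0.00288). Heatr1 and Utp4, of the same group, rose 1.26-fold and 1.24-fold. Of the MPP10 complex, which docks onto the U3 small nucleolar RNA, Mphosph10 and Imp4 rose 1.27-fold and 1.32-fold (adjusted p = 6.82e-05 and 2.40e-05). Their partner Imp3 was at 21.7, 24.2 and 24.4 CPM in the ORAI2 libraries, against 24.3, 24.5 and 21.1 CPM in the GFP libraries, with overlapping groups. Its log2 fold change was 0.0065 (95% interval -0.16 to 0.17, adjusted p = 0.956). Rrp9, a protein of the U3 particle itself, rose 1.35-fold.

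The largest rises among small-subunit factors were those of Nop14 and Utp20. Nop14, a core scaffold of the processome, was at 235, 225 and 235 CPM in the ORAI2 libraries, against 169.7, 161 and 168 CPM in the GFP libraries. It rose 1.39-fold (log2 fold change 0.48, SE 0.036, adjusted p = 6.02e-07). Utp20, a very long helical-repeat protein that embraces the late processome, was at 367, 342 and 359 CPM in the ORAI2 libraries, against 255, 248 and 264 CPM in the GFP libraries, and rose 1.39-fold (log2 fold change 0.48, SE 0.039, adjusted p = 1.19e-06). In both genes the lowest ORAI2 library was well above the highest GFP library. Noc4l, the binding partner of NOP14, rose 1.14-fold (adjusted p = 0.0081). The GTPase gene Bms1 rose 1.18-fold and Nat10, which encodes the acetyltransferase of the small-subunit RNA, 1.17-fold. Ddx10, an RNA helicase gene, passed narrowly, 1.10-fold with an adjusted p of 0.0473 and overlapping groups, and its call was lost in 11 of the 17 alternative fits.

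Factors of late small-subunit maturation and export rose too, all 5 of them. Rrp12, an export factor in yeast, was at 83.6, 84.8 and 85.1 CPM in the ORAI2 libraries, against 61.7, 63.0 and 60.9 CPM in the GFP libraries and rose 1.36-fold (log2 fold change 0.45, SE 0.039, adjusted p = 1.76e-06). Tsr1, which blocks premature joining of translation factors, was at 253, 246 and 242 CPM in the ORAI2 libraries, against 185, 184 and 183 CPM in the GFP libraries and rose 1.34-fold (log2 fold change 0.42, SE 0.034, adjusted p = 9.05e-07). Neither gene's groups overlapped. The Tsr1 exons share 1240 bases with exons of Srr on the opposite strand in the GRCm38 annotation, and without a stated use of strand in the counting the reads of both genes cannot be told apart, so its change is uncertain. Pno1 rose 1.296-fold, and Nob1, the nuclease gene of the last cut of the small-subunit RNA, 1.14-fold. Ltv1, whose yeast counterpart serves small-subunit export, rose 1.11-fold with an adjusted p of 0.0454, a call lost in 7 of the 17 alternative fits.

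All 16 large-subunit factors rose, with log2 fold changes between 0.15 and 0.53, and the groups overlapped in none of them. Gnl3 (nucleostemin), a nucleolar GTPase abundant in stem and tumour cells, was at 265, 253 and 258 CPM in the ORAI2 libraries, against 175, 182 and 182 CPM in the GFP libraries. It rose 1.44-fold (log2 fold change 0.53, SE 0.036, adjusted p = 2.25e-07), the largest rise of any member. The annotation places 3 small nucleolar RNA genes on the same strand over Gnl3 exons (Snord19, Snord69 and Gm24916, sharing 76, 80 and 79 bases), and their reads cannot be told apart from those of Gnl3 here. Nop2, the methyltransferase gene of the large-subunit RNA with an E-box before its start, was at 145, 151 and 150.1 CPM in the ORAI2 libraries, against 109, 104 and 110.02 CPM in the GFP libraries and rose 1.38-fold (log2 fold change 0.46, SE 0.037, adjusted p = 8.83e-07). Rrs1, which encodes a factor that helps to dock the smallest rRNA, was at 108, 109 and 109 CPM in the ORAI2 libraries, against 78.9, 80.7 and 76.8 CPM in the GFP libraries and rose 1.38-fold (log2 fold change 0.46, SE 0.037, adjusted p = 9.67e-07). In these 3 genes the ORAI2 libraries stood apart from the GFP libraries by several times the spread within a group.

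The PeBoW complex, needed for the large-subunit RNA to mature, showed unequal rises. Wdr12 was at 109, 108 and 109.7 CPM in the ORAI2 libraries, against 77.1, 79.3 and 79.9 CPM in the GFP libraries and rose 1.38-fold (log2 fold change 0.47, SE 0.037, adjusted p = 7.68e-07). Its partners Pes1 and Bop1 rose 1.204-fold and 1.13-fold (adjusted p = 9.22e-05 and 0.0132), and the Bop1 call was lost without ORAI2 replicate 1 (adjusted p = 0.0576). Noc3l and Noc2l, whose yeast counterparts escort the precursor toward the nucleoplasm, rose 1.33-fold and 1.11-fold. The Noc2l exons share 598 bases with exons of Samd11 on the opposite strand, so that its own change is uncertain. The helicase genes Ddx18 and Ddx56 rose 1.32-fold and 1.15-fold. Nip7 rose 1.3-fold, Grwd1 1.295-fold, and Ftsj3, a methyltransferase gene, 1.29-fold. Nop16, Rrp1b and Ebna1bp2 completed the group at 1.21-fold, 1.19-fold and 1.15-fold.

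**Figure D3:**
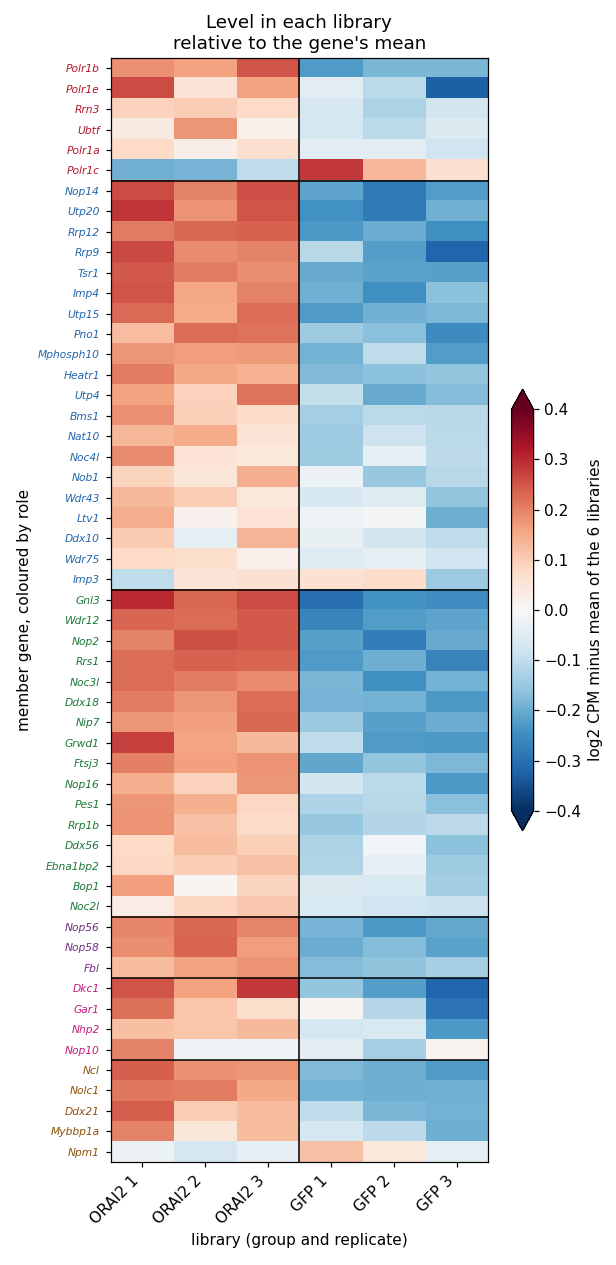
Level of each member (rows, gene names coloured by role, lines between roles) in each library (columns, ORAI2 left of GFP) as log2 CPM minus the gene's mean over the 6 libraries. Nearly every row is red in all 3 ORAI2 columns and blue in all 3 GFP columns, with Polr1c in the opposite colours and Imp3, Ddx10, Nop10 and Npm1 mixed.

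The proteins of box C/D snoRNPs, which methylate the sugar of chosen rRNA nucleotides, rose together. Nop56 was at 505, 517 and 504 CPM in the ORAI2 libraries, against 388, 376 and 383 CPM in the GFP libraries and rose 1.33-fold (log2 fold change 0.41, SE 0.033, adjusted p = 1.06e-06). Nop58, its partner in the same particle, was at 464, 479 and 458 CPM in the ORAI2 libraries, against 356, 362 and 352 CPM in the GFP libraries and rose 1.31-fold (log2 fold change 0.39, SE 0.035, adjusted p = 2.16e-06). Fbl (fibrillarin), the methyltransferase of the particle, rose 1.24-fold (log2 fold change 0.31, SE 0.036, adjusted p = 2.02e-05). All 3 were without overlap. Nop56 and Nop58 also hold small nucleolar RNA genes within their transcripts in the annotation, and reads of those RNAs cannot be told apart from the host's here.

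Box H/ACA snoRNPs turn selected uridines of rRNA into pseudouridine. Their catalytic protein gene, Dkc1 (dyskerin), was at 158, 149 and 162 CPM in the ORAI2 libraries, against 119.5, 114 and 107 CPM in the GFP libraries and rose 1.38-fold (log2 fold change 0.46, SE 0.047, adjusted p = 7.15e-06). Nhp2 was at 49.4, 49.1 and 49.7 CPM in the ORAI2 libraries, against 43.3, 43.6 and 38.8 CPM in the GFP libraries and rose 1.18-fold (log2 fold change 0.24, SE 0.053, adjusted p = 0.00311), and Gar1 rose 1.201-fold (adjusted p = 0.00665). Nop10, which encodes the smallest protein of the particle, had 19.2, 16.5 and 16.5 CPM in the ORAI2 libraries, against 16.2, 15.2 and 16.8 CPM in the GFP libraries. The groups of Nop10 overlapped, and its log2 fold change was 0.11 (95% interval -0.070 to 0.29, adjusted p = 0.31), an interval that includes the values of Nhp2 and Gar1 but not that of Dkc1.

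Among the general nucleolar proteins, Ncl (nucleolin), which binds nascent precursor rRNA, was at 2012, 1934 and 1927 CPM in the ORAI2 libraries, against 1506, 1489 and 1456 CPM in the GFP libraries. It rose 1.32-fold (log2 fold change 0.40, SE 0.036, adjusted p = 2.21e-06). Its exons share bases on the same strand with the small nucleolar RNA genes Snora75 (133 bases) and Gm24148 (56 bases) and with the microRNA gene mmu-mir-3535 (83 bases), whose reads cannot be told apart from its own here. Nolc1, a chaperone of snoRNPs, was at 208, 208 and 199.8 CPM in the ORAI2 libraries, against 158, 157 and 158 CPM in the GFP libraries and rose 1.304-fold (log2 fold change 0.38, SE 0.034, adjusted p = 2.22e-06). Ddx21, a helicase gene, and Mybbp1a, a binding partner of MYB and of the polymerase I machinery, rose 1.24-fold and 1.19-fold (adjusted p = 8.60e-05 and 7.69e-04). Npm1 (nucleophosmin), an abundant chaperone of the nucleolus, did not follow: it was at 967, 938 and 959.6 CPM in the ORAI2 libraries, against 1065, 1011 and 956 CPM in the GFP libraries. The groups overlapped, with a log2 fold change of -0.082 (95% interval -0.17 to 0.0090, adjusted p = 0.136). That interval lies below the log2 fold change of every member that rose. Npm1 was called lower with offsets for GC content (adjusted p = 0.0172) and without GFP replicate 3 (adjusted p = 0.0262).

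Across the 54 members the log2 fold change was only weakly related to the level and base composition of the transcript, and somewhat more to its length. Pearson's r with the log2 mean CPM was 0.13 (Spearman's rho 0.19), and with the transcript's GC content -0.12 (Spearman's rho -0.13). With the log2 length of the longest annotated transcript it was 0.33 (Spearman's rho 0.23). Imp3, Nop10, Polr1c and Npm1, the members not called higher, were among the shortest, at 924, 1109, 1314 and 1633 bases. Nhp2, Fbl, Gar1, Pno1 and Rrp9, at 1042 to 1586 bases, were called higher. No alternative fit adjusted for length, and its part in the results was not tested. These are descriptions over genes that share the same 6 libraries.

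Other genes of the pathway, in 6 further lists of 133 genes in all, gave 79 higher, 4 lower and 50 not called, with a median log2 fold change of 0.22. The 39 other small-subunit factors had 24 higher and none lower (15 did not pass), led by Nol6 and Pwp2, which rose 1.43-fold and 1.402-fold (adjusted p = 1.01e-06 and 1.26e-06). Of 46 other large-subunit factors 32 were higher and none lower, with 14 not called. Nol8 and Urb2 rose 1.36-fold and 1.34-fold (adjusted p = 2.05e-06 and 3.20e-06). Of 9 other polymerase I genes, 5 rose, 1 fell and 3 did not pass. Taf1d and Polr1g rose 1.23-fold and 1.36-fold. Taf1b, a subunit of the promoter selectivity factor beside Taf1d, was 1.29-fold lower, at 11.6 ± 0.340 CPM in ORAI2 libraries and 14.98 ± 0.895 CPM in GFP libraries (adjusted p = 0.00294). Taf1a and Taf1c, of the same factor, rose like Taf1d, 1.21-fold and 1.26-fold (adjusted p = 0.00702 and 0.0116). The median log2 fold change was 0.23 for the small-subunit list, 0.26 for the large-subunit list and 0.23 for the polymerase I list. A polymerase I median well below that of the small subunit, as among the members, was thus not seen in these lists.

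RNA polymerase III, with which Polr1c is shared, was mixed: of 15 subunits and factors 7 were higher, 2 lower and 6 not called (median log2 fold change 0.065). Bdp1 and Polr3e rose 1.22-fold and 1.24-fold. Maf1, the repressor of the enzyme, was at 49.1, 52.3 and 51.7 CPM in the ORAI2 libraries, against 69.9, 66.8 and 68.3 CPM in the GFP libraries. It was lower by 1.34-fold (log2 fold change -0.42, SE 0.045, adjusted p = 9.61e-06). Polr3g and Polr3gl, which encode alternative versions of the same subunit, went opposite ways. Polr3g was at 13.6 ± 0.887 CPM in ORAI2 libraries and 10.3 ± 1.26 CPM in GFP libraries (log2 fold change 0.40, adjusted p = 0.00605), and Polr3gl at 22.8 ± 0.0606 CPM in ORAI2 libraries and 29.5 ± 3.44 CPM in GFP libraries (log2 fold change -0.37, adjusted p = 0.00235; SD, n = 3 each). Polr3g was picked out after its values were seen.

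The median log2 fold change was 0.16 both for snoRNP assembly and for the exosome, which trims rRNA. Of 10 genes listed with snoRNP assembly 4 rose, 1 fell and 5 did not pass. Tcof1 (treacle) and Snu13, which are not assembly factors in the strict sense, rose 1.21-fold and 1.17-fold, and Pih1d1 was 1.15-fold lower. Of 14 genes of the RNA exosome, a nuclease complex, 7 rose and 7 did not pass, with Exosc10 and Exosc1 1.26-fold and 1.28-fold higher. Host genes, whose introns carry small nucleolar RNAs, were higher in 9 of 14 with none lower. Snhg1 was at 172, 185 and 175 CPM in the ORAI2 libraries, against 135, 135 and 130.3 CPM in the GFP libraries and rose 1.33-fold (log2 fold change 0.41, SE 0.038, adjusted p = 3.15e-06). Snhg12 rose 1.39-fold. Rn5s, an rRNA gene, was at 0.466 ± 0.390 CPM in ORAI2 libraries and 0.999 ± 0.431 CPM in GFP libraries (SD, n = 3 each) and did not pass (adjusted p = 0.091), in libraries made from RNA bound by oligo(dT). Other rRNAs were not analysed here.

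Ribosomal proteins, the building blocks rather than the builders, were mixed in direction. Of 79 cytosolic ribosomal protein genes 15 were higher, 10 lower and 54 not called. These shares, 19.0% higher and 12.7% lower, were not above the 20.8% and 22.1% of all tested genes. Their median log2 fold change was 0.038, and that of the members 0.31. Their summed level was 37743, 39079 and 38129 CPM in the ORAI2 libraries, against 38590.0, 37361 and 36289 CPM in the GFP libraries, and the groups overlapped. The members' sum as a percentage of that of the cytosolic ribosomal proteins was 29.3%, 27.5% and 28.4% in the ORAI2 libraries, against 23.5%, 23.9% and 24.1% in the GFP libraries, without overlap. Rpl12 and Rps23 rose 1.203-fold and 1.15-fold (adjusted p = 8.46e-05 and 0.00106), whereas Rpl34 was 1.12-fold lower (adjusted p = 0.00591). Of 77 genes for mitochondrial ribosomal proteins 9 were higher (11.7%), 7 lower (9.09%) and 61 not called (median log2 fold change -0.020). Most cytosolic ribosomal protein genes have shorter annotated transcripts than most members, for example 1242 bases for Rpl12 and 937 bases for Rps23. Whether the members differ from these lists was not tested, nor was the part of transcript length in the medians.

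**Figure D4:**
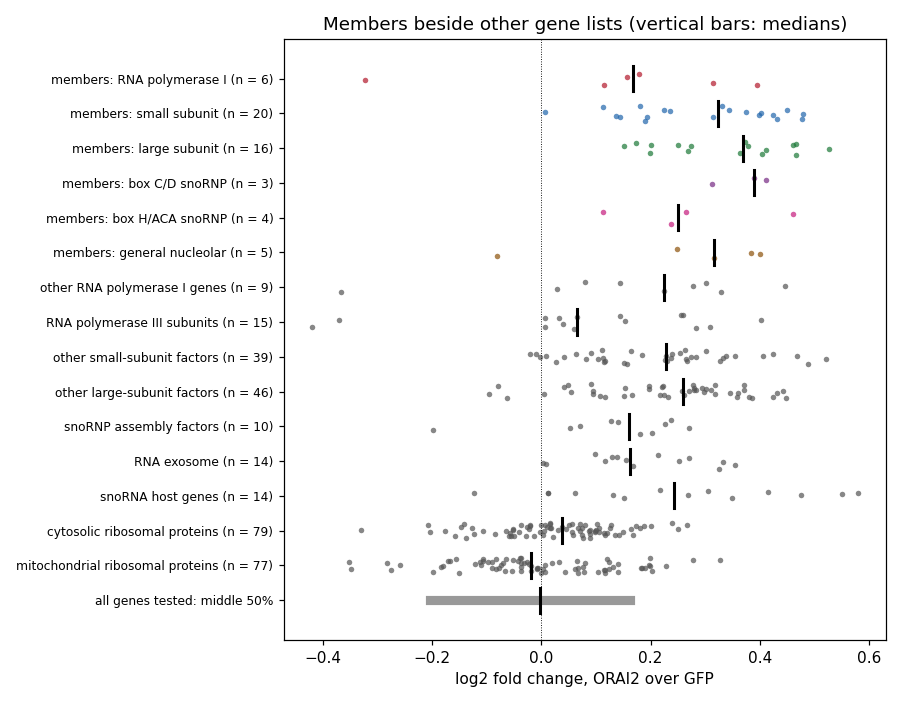
Log2 fold change (x axis) of every tested gene in the 6 roles (coloured) and in 9 other lists (grey), with a vertical bar at each median and, in the last row, a thick bar over the middle 50% of all tested genes. Medians of the roles lie between 0.17 and 0.39, those of the ribosomal protein lists at 0.038 and -0.020.

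Myc, the activator named above, was at 293, 300.4 and 279.5 CPM in the ORAI2 libraries, against 182, 189 and 187 CPM in the GFP libraries and rose 1.56-fold (log2 fold change 0.64, SE 0.038, adjusted p = 6.94e-08), with no overlap between the groups. The relation between Myc and the members was not tested, since both come from the same 6 libraries.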

How the data were processed

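RNA from 6 MEF libraries (3 ORAI2, 3 GFP) was sequenced. Per the labels' protocols, mRNA was bound on oligo(dT) beads and primed with random hexamers. The genome build GRCm39 and the tools HISAT2 2.0.4 and Salmon 1.4.0 are named, without roles, per the submitters' processing notes. The annotation and any use of strand were not given in the sources used here. For every gene the authors deposited counts, as whole numbers, and TPM, per the file headers. TPM entered no comparison, because those columns did not match the counts under the same names (closing observations). RefSeq (GRCm38.p6) symbols matched 25631 of 26532 Entrez numbers (96.6%).

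Counts were tested with edgeR 4.0.16 (R 4.3.3; quasi-likelihood, TMM, filterByExpr with a minimum count of 10, group as the only term), leaving 13764 genes. Calls are at a Benjamini-Hochberg adjusted p under 0.05 over all of them. Standard errors derive from the F statistic. The members and lists were chosen with earlier results of these data known. Genes given with values in every library or with a full statistic follow a rule: Orai2, Myc, per role the 4 called members with the smallest p (2 in roles of 5 or fewer) and the member with the highest level, members called against the majority, the member with the largest p, and per other list up to 2 called genes per direction. Further genes, among them Npm1 and Nop10, were chosen after their values were seen, and genes of the marker and mitochondrial lists that the rule takes are given by count. A further gene that the rule takes is not reported here. DESeq2 1.42.0, limma 3.58.1 (voom) and the other alternatives are in the closing section. The steps were also run on simulated data. That outcome is not reported here, so it is no support for calls at the small folds above. None of the members shares an identical annotated transcript with another gene (GENCODE M21, GRCm38), and 19 share exon bases with a gene on the opposite strand.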

Additional observations from a re-analysis of the deposited data

How the results depend on the processing

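The 17 alternatives were 3 other normalisations, 2 other filters, DESeq2, limma-voom, a fit with robust spread, a block for the replicate number, offsets for GC content with and without that block, and each library left out in turn. Over the 11 that kept all libraries, members called higher numbered between 47 and 50 (50 in the report), their median log2 fold change lay between 0.29 and 0.32, and all genes called between 4825 and 6246 (5909 in the report). Leaving out 1 library gave 45 to 50 members called higher, 1 to 2 called lower, medians of 0.30 to 0.35 for the members, 0.15 to 0.19 for polymerase I, 0.31 to 0.35 for the small subunit, 0.35 to 0.39 for the large subunit and 0.31 to 0.34 for snoRNPs, and 4943 to 5661 genes called. In all, 44 members were called higher in every fit. Members called lower numbered 2 with offsets for GC content, with or without the replicate block, and the added member was Npm1. The snoRNP median was then 0.35 in both (0.3469 with the block, 0.3471 without), and the large-subunit median was 0.35 (0.3480) with upper quartile normalisation. Imp3, at 0.0065, was at -0.014 with upper quartile normalisation, -0.062 without GFP replicate 3, -0.012 and -0.016 without ORAI2 replicates 2 and 3, and 0.063 (0.0627) without ORAI2 replicate 1. The calls lost in any fit were those of Ddx10, Ltv1, Wdr75, Polr1e, Ubtf and Bop1. The cause of these changes was not tested.

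The groups share replicate numbers. Deviations of same-numbered libraries from their group means correlated by 0.136, 0.073 and 0.126, and each library correlated best with its own number, a hint from the data only. With the replicate block no member's call changed, and 50 members were called higher. At 3 libraries a group, members with few counts such as Nop10, Imp3 and Polr1e are the least precise.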

Other observations

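The deposited TPM columns hold values that no comparison above uses. By rank correlation over all genes, the TPM columns named GFP-1, GFP-2, ORAI2-1 and ORAI2-2 were closest to the count columns named GFP-2, GFP-3, ORAI2-2 and ORAI2-3 (Spearman's rho 0.957, 0.958, 0.959 and 0.958), and those named GFP-3 and ORAI2-3 to no count column above 0.904. Orai2 was at 1429.5, 1241.34 and 36.33 TPM in the columns named ORAI2-1, ORAI2-2 and ORAI2-3, and at 24.83, 24.86 and 38.19 TPM in GFP-1, GFP-2 and GFP-3, so the column named ORAI2-3 goes against its name. The members summed to 8457, 8550.2 and 5776 TPM in the 3 ORAI2 columns, and to 7375, 7224 and 4064 TPM in the 3 GFP columns.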
